A study of Mus musculus with 6 samples.

Results

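The 10 genes described here belong to the integrated stress response, the pathway by which a stressed cell slows translation and switches on the transcription factor ATF4. They are the transcription factors Atf4, Ddit3 (the gene of CHOP) and Atf5, the pseudokinase gene Trib3, the phosphatase subunit gene Ppp1r15a (GADD34), the enzyme genes Asns and Chac1, the mTORC1 inhibitor genes Sesn2 and Ddit4, and the hormone gene Gdf15. They were taken by symbol from the deposited expression table. All 10 were present among its 24346 gene symbols, and all 10 passed the minimum for testing, a 6-liver mean of 0.5 FPKM, as did 11493 genes in total.

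In this pathway, kinases that sense different stresses phosphorylate the translation initiation factor eIF2. PERK (Eif2ak3) senses unfolded protein in the endoplasmic reticulum, GCN2 (Eif2ak4) uncharged tRNA, PKR (Eif2ak2) double-stranded RNA, and HRI (Eif2ak1) heme shortage and mitochondrial stress. Most translation then slows, while the mRNAs of ATF4, CHOP and ATF5 are translated more, through upstream open reading frames. ATF4 pairs with C/EBP and related proteins and binds C/EBP-ATF response elements in genes of amino acid supply, tRNA charging, redox balance and feedback. Since ATF4 is controlled mainly at translation, the level of its mRNA is a poor measure of the amount of protein. In hepatocytes the pathway is known from amino acid shortage, from protein folding stress in fatty liver, and from the secreted hormones FGF21 and GDF15.

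Liver tissue was taken from C57BL/6 (C57BL/6J in the methods) male mice, 8 weeks old at the start, that were fed a choline-deficient, amino acid-defined high-fat diet (CDAHFD) for 6 weeks as a model of nonalcoholic steatohepatitis (NASH) and were analysed 2 weeks after the return to normal chow. The 3 control mice carried an adeno-associated virus with LDTS-LIR mut, a lipid droplet-targeting sequence of perilipin 1 joined to a mutated LC3-interacting region. The 3 lipophagy-induced mice carried LDTS-eLIR, in which an engineered LC3-interacting region brings droplets to autophagosomes. Both vectors used the thyroxine-binding globulin promoter, which restricts expression to hepatocytes, and the targeting sequence has a mild lipogenic effect of its own, so no liver here was without vector, and livers of mice without diet were not analysed here. The comparison asks how the liver transcriptome of this NASH model differs when droplets are sent to autophagy.

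FPKM values (fragments scaled by the authors to transcript length and to the number of mapped fragments) were compared on the log2(FPKM + 1) scale. The steps between low FPKM values gave an estimated depth of 23.7 to 33.9 M fragments in control livers and 22.8 to 24.6 M in lipophagy livers. Plin1, part of which both vectors encode, was at 160, 116 and 120 FPKM in control livers and at 97.9, 97.9 and 81.9 FPKM in lipophagy livers, so it was lower where the engineered construct was carried, and vector and native transcripts cannot be told apart in it. In whole tissue, fewer cells of a type and less RNA per cell cannot be told apart either. Of 10 hepatocyte markers 9 had a higher mean in lipophagy livers (summed level 60690 to 67650 FPKM in control livers, 73870 to 95710 FPKM in lipophagy livers). Of 10 stellate cell markers 9 had a lower mean (176 to 186 against 140 to 168 FPKM). All 3 tested neutrophil markers (18.8 to 32.0 against 16.1 to 18.7 FPKM) and all 5 tested bile duct markers (137 to 247 against 92.1 to 196 FPKM) had lower means, as did 2 of 3 lymphocyte markers (4.79 to 5.97 against 3.80 to 4.50 FPKM). Macrophage markers were lower in 6 of 10 (551 to 733 against 540 to 678 FPKM), and endothelial markers were higher in 6 of 7 (22.1 to 28.0 against 26.4 to 42.4 FPKM). The neutrophil marker Ly6g was not analysed here, and no other listed marker was at 0 in all livers. The part of these cell types in the results below was not tested.

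The response element is shown first, because the genes that carry it lay on both sides of the control livers. The promoters of RefSeq (GRCm38.p6, 250 bases before to 50 after each start) held 12 entries for the 10 genes, and the letters TGATGNAA were searched on both strands. They were found in 3 of these 12 promoters, those of Asns, Chac1 and Trib3, and in 3.97% of the 32851 promoters of the table. Below, 30 bases around each match are written 5′ to 3′ on the strand that reads TGATGNAA, with the match in capitals. The same stretch is given for Fgf21, Atf3 and Herpud1, genes of the wider pathway whose group values lay apart. Slc1a4, Yars and Iars also held a match and had groups that lay apart, but are not printed.
Asns: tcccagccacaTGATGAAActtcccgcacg
Chac1: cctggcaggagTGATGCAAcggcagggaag
Trib3: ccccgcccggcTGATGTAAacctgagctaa
Fgf21: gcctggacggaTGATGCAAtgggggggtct
Atf3: cgcggacttggTGATGCAAgtgcgagaagg
Herpud1: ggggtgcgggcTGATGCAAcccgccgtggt
These stretches lie at chr6:7693214-7693243, chr2:119351038-119351067, chr2:152344028-152344057, chr7:45615611-45615640, chr1:191183425-191183454 and chr8:94386306-94386335, in that order. The match began at base -23 from the start of Asns, -193 from that of Chac1, -139 from that of Fgf21, -110 from that of Atf3 and -112 from that of Herpud1, all counted from the RefSeq start, and in Trib3 it began at base 14 after that start. The starts of the GENCODE spans given below differ from these for some genes: by them the Trib3 match lies upstream of the start and the Asns match within the transcribed part. A match is a description of the letters and not a bound site.

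Between the groups the 10 genes did not move as one. With limma and Benjamini-Hochberg adjustment over the 11493 genes, 0 of the 10 had an adjusted p below 0.05, as against 0.0261% of all genes tested. At an unadjusted p below 0.05, 2 were higher (Gdf15 and Ddit4) and 1 was lower (Chac1), where 11.5% of all genes were higher and 7.97% lower. With quantile normalization that balance over all genes turned, to 745 higher and 899 lower from 1327 higher and 916 lower. Over all genes 801 were higher without lipophagy liver 1, and 596 were lower without control liver 3. Among the 10, Atf4 and Ddit3 were added at that threshold without control liver 2, Trib3 without control liver 3 and Ppp1r15a without lipophagy liver 3. The livers of the groups did not overlap for 1 gene that was higher, Gdf15 (15.4% of all genes), and for 1 that was lower, Chac1 (10.8% of all genes), so these shares of the 10 were near those of all genes. Group means were higher with lipophagy for 8 of the 10 and lower for 2, with a median log2 change of 0.18, beside 54.5% higher and a median of 0.020 over all genes.

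**Figure D1:**
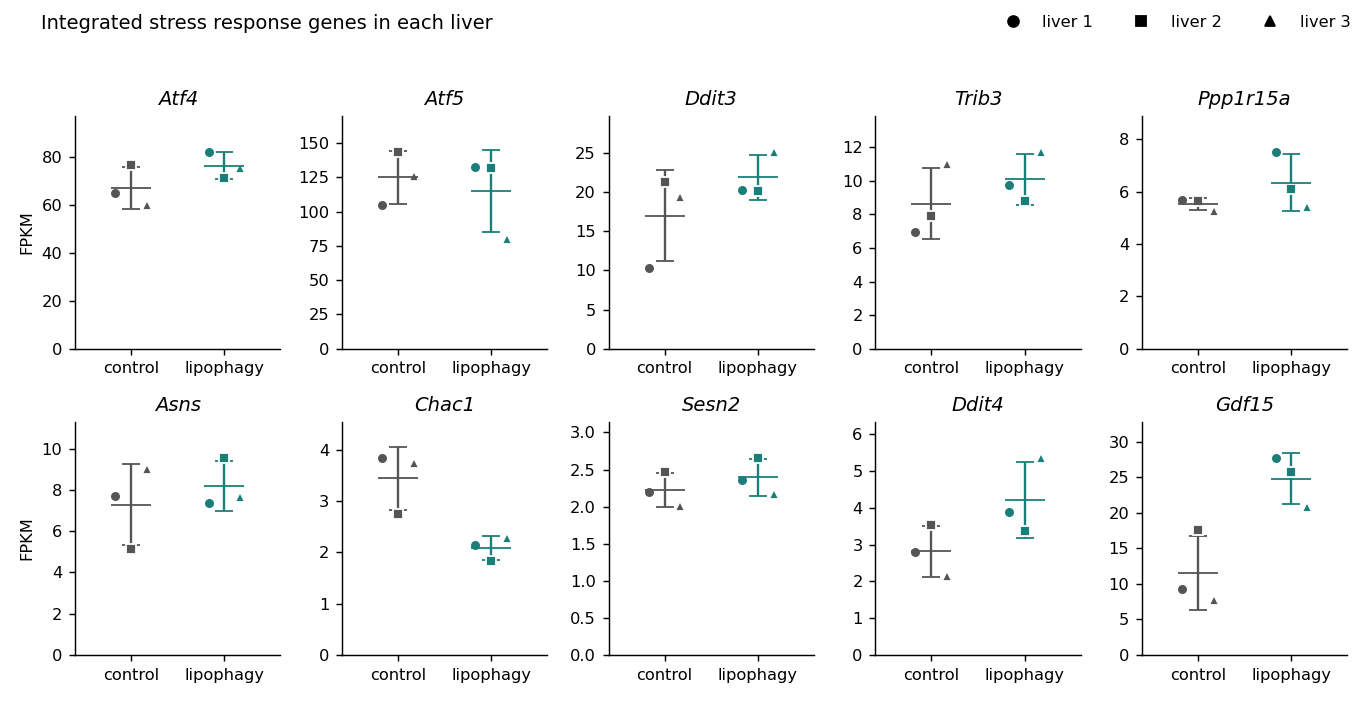
FPKM (vertical axis, from 0) of the 10 genes in the 3 control livers (grey) and the 3 lipophagy livers (green), with a symbol for each liver and the mean ± SD as lines. The lipophagy livers lie above the control livers for Gdf15 and below them for Chac1, and the groups overlap in the other panels.

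**Figure D2:**
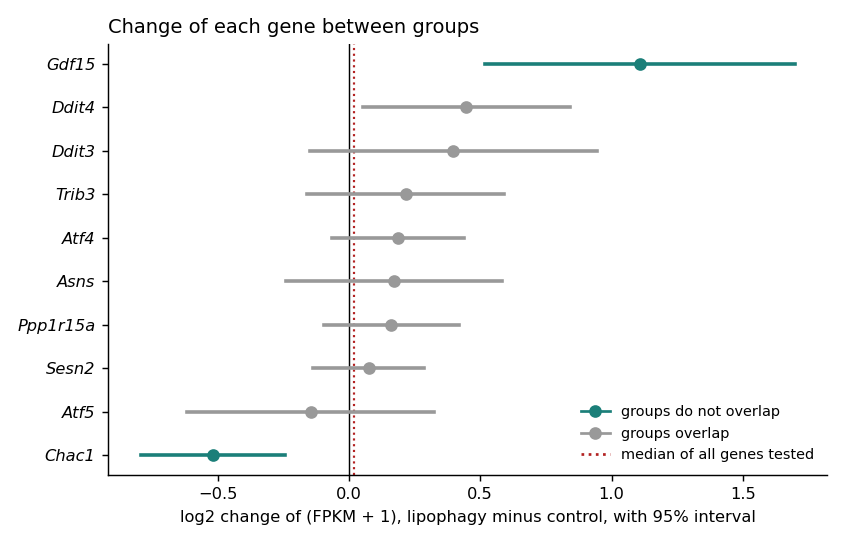
Log2 change of (FPKM + 1) of the 10 genes between lipophagy and control livers (horizontal axis), with its 95% interval from limma. Gdf15 is at 1.11 and Chac1 at -0.52, and the interval of Ddit4 lies above 0 although its livers overlap.

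Among the transcription factors, Atf4 (chr15:80255184-80257541), the central activator of the pathway, was at 65.0, 76.9 and 59.97 FPKM in control livers and at 82.4, 71.4 and 75.7 FPKM in lipophagy livers. The highest control liver lay among the lipophagy livers. Its log2 change was 0.19 (standard error 0.11, 95% interval -0.063 to 0.44, adjusted p = 0.366, limma), and it was 0.040 with quantile normalization, 0.29 without control liver 2 and 0.11 without control liver 3. Ddit3 (chr10:127290774-127296288), which encodes CHOP, a factor that ATF4 induces and that favours cell death under lasting stress, was at 10.3, 21.2 and 19.4 FPKM in control livers and at 20.2, 20.1 and 25.1 FPKM in lipophagy livers. Control liver 1 alone was low, and the other 2 control livers were at the level of the lipophagy livers. The log2 change was 0.40 (standard error 0.24, interval -0.15 to 0.94, adjusted p = 0.377, limma), and 0.094 without control liver 1. With the replicate number as a block its unadjusted p was 0.0481 (adjusted p = 0.276, limma), against 0.132 without. Atf5 (chr7:44812256-44816658), a related factor linked to mitochondrial protein stress, was at 105, 144 and 126 FPKM in control livers and at 133, 132 and 80.1 FPKM in lipophagy livers. Lipophagy liver 3 was the lowest of all 6, and the other 2 lipophagy livers lay within the control range. The log2 change of -0.14 (standard error 0.20, interval -0.61 to 0.33, adjusted p = 0.717, limma) had the opposite sign, 0.095, without that liver. It was -0.038 without control liver 2, -0.26 without control liver 1 or lipophagy liver 2, -0.27 without lipophagy liver 1 and -0.32 with quantile normalization.

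Trib3 (chr2:152337422-152344032), a pseudokinase that ATF4 and CHOP induce and that restrains AKT and ATF4 in turn, was at 6.97, 7.90 and 10.999 FPKM in control livers and at 9.74, 8.76 and 11.7 FPKM in lipophagy livers. Control liver 3 stood among the lipophagy livers (log2 change 0.22, interval -0.16 to 0.59, adjusted p = 0.474, limma). That change was 0.091 without control liver 1, 0.39 without control liver 3 and 0.11 without lipophagy liver 3. Ppp1r15a (chr7:45522916-45526268), the stress-induced subunit that directs a phosphatase to eIF2 and so ends the response, was at 5.68, 5.64 and 5.27 FPKM in control livers and at 7.53, 6.09 and 5.43 FPKM in lipophagy livers. Its control livers were close together, at 5.53 ± 0.224 FPKM (SD, n = 3), and lipophagy liver 3 lay among them. This gave a log2 change of 0.16 (interval -0.094 to 0.42, adjusted p = 0.438, limma), with 0.049 without lipophagy liver 1 and 0.25 without lipophagy liver 3.

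Of the enzymes of amino acid and glutathione metabolism, the groups overlapped for Asns and lay apart for Chac1. Asns (chr6:7675169-7693254), which makes asparagine, was at 7.69, 5.14 and 8.996 FPKM in control livers and at 7.36, 9.56 and 7.65 FPKM in lipophagy livers. The control livers spanned most of the range, and the log2 change of 0.17 (interval -0.24 to 0.58, adjusted p = 0.61, limma) was -0.028 without control liver 2, 0.32 without control liver 3 and 0.068 without lipophagy liver 2. Chac1 (chr2:119351229-119354381), whose enzyme breaks down glutathione and which is among the most inducible targets of ATF4, was at 3.84, 2.74 and 3.75 FPKM in control livers and at 2.15, 1.83 and 2.29 FPKM in lipophagy livers. All 3 lipophagy livers lay below the lowest control liver, with a mean 0.607 times that of the control livers. The log2 change was -0.52 (standard error 0.12, interval -0.79 to -0.24), with an unadjusted p of 0.00241 and an adjusted p of 0.134 (limma). It kept its sign in all 16 alternative fits, from -0.69 to -0.45, with adjusted p from 0.0789 to 0.335 (limma). Chac1 is a low transcript, with an estimated 61.9 to 189 fragments per liver, so counting alone gives an error of up to 12.7% in one liver.

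The stretch upstream of Chac1 is given at more length, since of the genes with the element in the promoter it was the one of the 10 whose groups lay apart. It covers bases -225 to -106 from the start (chr2:119351017-119351136, forward strand), with the match in capitals as it reads on the gene's own strand.
Chac1: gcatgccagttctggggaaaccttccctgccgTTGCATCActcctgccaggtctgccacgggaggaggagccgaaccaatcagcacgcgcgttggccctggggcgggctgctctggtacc

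Of the inhibitors of mTORC1, the kinase that couples growth to nutrients, Sesn2 (chr4:132492032-132510501) encodes a leucine sensor and was at 2.2002, 2.46 and 2.01 FPKM in control livers and at 2.36, 2.66 and 2.17 FPKM in lipophagy livers. It varied least of the 10 over the 6 livers, with the highest value 1.32 times the lowest, and its interval of -0.14 to 0.29 around a log2 change of 0.075 was the narrowest (adjusted p = 0.67, limma). Leaving out single livers gave 0.020 (without lipophagy liver 2) to 0.13 (without control liver 2), with 0.027 without control liver 3 and 0.12 without lipophagy liver 3. Ddit4 (chr10:59949669-59951834), which encodes REDD1 and also answers to glucocorticoids and low oxygen, was at 2.79, 3.52 and 2.13 FPKM in control livers and at 3.89, 3.38 and 5.36 FPKM in lipophagy livers. Lipophagy liver 3 was the highest, and control liver 2 lay above lipophagy liver 2. The log2 change was 0.45 (standard error 0.17, interval 0.053 to 0.84), with an unadjusted p of 0.0307 and an adjusted p of 0.222 (limma), and it was 0.29 without lipophagy liver 3. Its unadjusted p was 0.0634 without control liver 1, 0.11 without control liver 3 and 0.101 without lipophagy liver 3, and it was 0.0504 with no filter on low values and 0.0856 with liver weights (limma). In that same liver the 8 glucocorticoid-responsive genes, such as Tsc22d3 and Per1, had a mean of 0.94 above their own means on the log2 scale, where the other 2 lipophagy livers were at -0.018 and 0.0038 and the control livers at -0.37 to -0.21. The part of that liver's glucocorticoid-responsive genes in the Ddit4 value was not tested.

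Gdf15 (chr8:70629393-70632456), a stress hormone that lowers appetite through the brainstem receptor GFRAL, stood furthest apart. It was at 9.31, 17.5 and 7.75 FPKM in control livers and at 27.7, 25.8 and 20.8 FPKM in lipophagy livers. Every lipophagy liver lay above every control liver, and the mean of 24.8 ± 3.58 FPKM (SD, n = 3) was 2.15 times that of the control livers, 11.5 ± 5.25 FPKM (SD, n = 3). The log2 change was 1.11 (standard error 0.26, interval 0.52 to 1.70), with an unadjusted p of 0.00245 and an adjusted p of 0.134 (limma). Control liver 2 was nearer to the lowest lipophagy liver than to the other control livers. Without it the log2 change was 1.43 and the adjusted p 0.0417 (limma), and in the other 15 alternative fits the change was 0.89 to 1.22 with adjusted p from 0.0563 to 0.335 (limma). A two-sided exact permutation test over 3 livers against 3 cannot give a p below 0.1. Gdf15 is the member furthest from no change and has no match to TGATGNAA in its 2 promoter entries, so the 120 bases before the upstream one of its starts (chr8:70632457-70632576, reverse strand) are printed here for comparison with the stretches above.
Gdf15: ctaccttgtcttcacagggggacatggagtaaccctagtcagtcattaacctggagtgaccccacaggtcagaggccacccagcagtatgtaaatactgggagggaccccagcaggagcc
That these letters are missing from the window says nothing about binding elsewhere.

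FPKM is per length, so levels can be set in order between genes. Atf5 was the highest of the 10 (median 129 FPKM over the 6 livers, range 80.1 to 144), above Atf4 (73.5 FPKM, 59.97 to 82.4) in each of the 6 livers. Ddit3 (20.2 FPKM) and Gdf15 (19.15 FPKM) came next and well below Atf4, with no overlap between Atf4 and Ddit3. Their own ranges overlapped, and Ddit3 was above Gdf15 in 4 of the 6 livers, all 3 control livers among them. Trib3 (9.25 FPKM), Asns (7.67 FPKM) and Ppp1r15a (5.66 FPKM) followed, each overlapping its neighbour. Ddit4 (3.45 FPKM), Chac1 (2.515 FPKM) and Sesn2 (2.28 FPKM) were lowest and overlapped as well. Chac1 was above Sesn2 in the 3 control livers, whereas in lipophagy livers 1 and 2 it was below. Among the control livers Gdf15 and Ddit3 scattered most, with coefficients of variation of 45.6% and 34.5%, and among the lipophagy livers Atf5 and Ddit4 did, with 26.2% and 24.5%.

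As deviations from each gene's own mean on the log2 scale, the 10 genes averaged -0.21, 0.0029 and -0.11 for control livers 1, 2 and 3, and for the lipophagy livers 0.15, 0.090 and 0.078. Without Gdf15, left out after its values were seen, the averages were -0.15, -0.0066 and -0.0069 for control livers, and 0.085, 0.031 and 0.051 for lipophagy livers. Control liver 1 was the lowest in both averages, and no average of a control liver reached that of a lipophagy liver. By gene, however, control liver 3 held the lowest value most often, for 5 of the 10. By the root mean square difference of log2 values centred on each gene's mean over the 6 livers, the genes nearest to Atf4 were Ercc8 (0.048), Foxred1 (0.053) and Gstk1 (0.057), all with differences well under the spread of Atf4 about its own mean (0.15). The genes nearest to Gdf15 were Cks1b (0.31), the endoplasmic reticulum cochaperone gene Dnajb9 (0.32) and the secretory cell transcription factor gene Bhlha15 (0.32), against a spread of Gdf15 itself of 0.66. Bhlha15 was at 0.0786 to 0.225 FPKM in control livers and at 0.96 to 1.83 FPKM in lipophagy livers, through which alone it passed the minimum.

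Upstream of ATF4, the groups overlapped for each of the 4 eIF2 kinase genes. PERK (Eif2ak3) was at 4.62 ± 0.785 FPKM (SD, n = 3) in control livers and 5.67 ± 0.39 FPKM (SD, n = 3) in lipophagy livers, with a log2 change of 0.25 (interval -0.0098 to 0.52, adjusted p = 0.269, limma). Values of 0.012 were found for HRI (Eif2ak1, interval -0.20 to 0.22), of -0.030 for PKR (Eif2ak2, interval -0.23 to 0.17) and of -0.088 for GCN2 (Eif2ak4, interval -0.29 to 0.11). The list held 16 genes, the kinases, the subunits of eIF2 and of its exchange factor eIF2B, and the regulators Ppp1r15b, Impact, Nck1 and Dnajc3. Of these 13 had a higher mean, and 6 were higher with groups that did not overlap (37.5%, against 15.4% of all genes). Their median was 0.17, and 0.078 with quantile normalization. Eif2b3 (0.43) and Eif2s2 (0.32), an eIF2B and an eIF2 subunit, and the PERK inhibitor gene Dnajc3 (0.31) were furthest up, with adjusted p of 0.137, 0.171 and 0.248 (limma). No gene of this list or of the other 6 pathway lists had an adjusted p below 0.05 (limma), while at an unadjusted p below 0.05 30 of the 102 genes were higher and 11 lower (11.5% and 7.97% of all genes).

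The bZIP partners of ATF4 were mostly lower. Of 11 genes, 7 had a lower mean and 3 were lower with groups that did not overlap (27.3%, against 10.8% of all genes), with a median of -0.13. Without lipophagy liver 1 that median was -0.034, and without lipophagy liver 3 it was -0.21. Atf3, an early stress factor, was at 7.16 ± 1.69 and 4.53 ± 0.512 FPKM in control and lipophagy livers (SD, n = 3 each; log2 change -0.54, adjusted p = 0.156, limma). Jun (-0.41, adjusted p = 0.131, limma) and Nfe2l2, the gene of NRF2 (-0.26, adjusted p = 0.17, limma), lay apart in the same direction. The groups overlapped for Cebpb (45.8 ± 13.8 and 53.02 ± 13.8 FPKM, SD, n = 3 each) and for Cebpg (log2 change -0.13), C/EBP partners of ATF4.

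Genes downstream of ATF4 were taken by branch. All 14 genes of tRNA charging had a higher mean, with a median of 0.15 (0.079 with quantile normalization and 0.23 without lipophagy liver 3), and 5 were higher without overlap (35.7%, against 15.4%), furthest Yars (0.32), Nars (0.25) and Wars (0.20), with adjusted p of 0.204, 0.182 and 0.306 (limma). Of 19 genes of amino acid synthesis and transport, 14 were tested, since Phgdh, Pycr1, Slc7a11, Slc7a1 and Slc7a5 were under the minimum of 0.5 FPKM as means over the 6 livers. Of the 14, 6 were higher and 8 lower, with a median of -0.035, which was 0.09 with a minimum of 1 FPKM and 0.014 without control liver 2. The serine enzyme gene Shmt2 was higher without overlap (0.15), and the neutral amino acid transporter genes Slc1a4 (-0.51) and Slc1a5 (-0.23) were lower, with adjusted p of 0.385, 0.165 and 0.204 (limma). The serine synthesis gene Psat1, at 0.599 ± 0.0308 and 0.462 ± 0.103 FPKM (SD, n = 3 each), passed the minimum only through the control livers.

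Among 14 tested genes of other ATF4 and CHOP targets, 5 were higher and 9 lower, with a median of -0.13, which was -0.27 without control liver 1, -0.23 without control liver 2 and -0.085 with quantile normalization. Fgf21, the fasting and stress hormone of the liver, was at 3.16 ± 0.709 FPKM (SD, n = 3) in control livers and 1.33 ± 0.305 FPKM (SD, n = 3) in lipophagy livers. No lipophagy liver reached the lowest control liver (log2 change -0.83, interval -1.18 to -0.49, adjusted p = 0.111, limma). Thus the hormone genes Gdf15 and Fgf21, both known as outputs of this pathway, stood on opposite sides of the control livers. Ndrg1 was lower (-0.41, adjusted p = 0.197, limma). The death receptor gene Tnfrsf10b, a CHOP target, was at 0.857 ± 0.169 and 0.374 ± 0.073 FPKM (SD, n = 3 each), so that it passed the minimum only through the control livers, where it was higher. Herpud1, which acts in the degradation of misfolded proteins and answers to both ATF4 and ATF6, was higher (149 ± 41.3 and 276 ± 64.7 FPKM, SD, n = 3 each, log2 change 0.90, adjusted p = 0.144, limma), and Ero1l (0.17) and Ccpg1 (0.16) were higher by less.

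**Figure D3:**
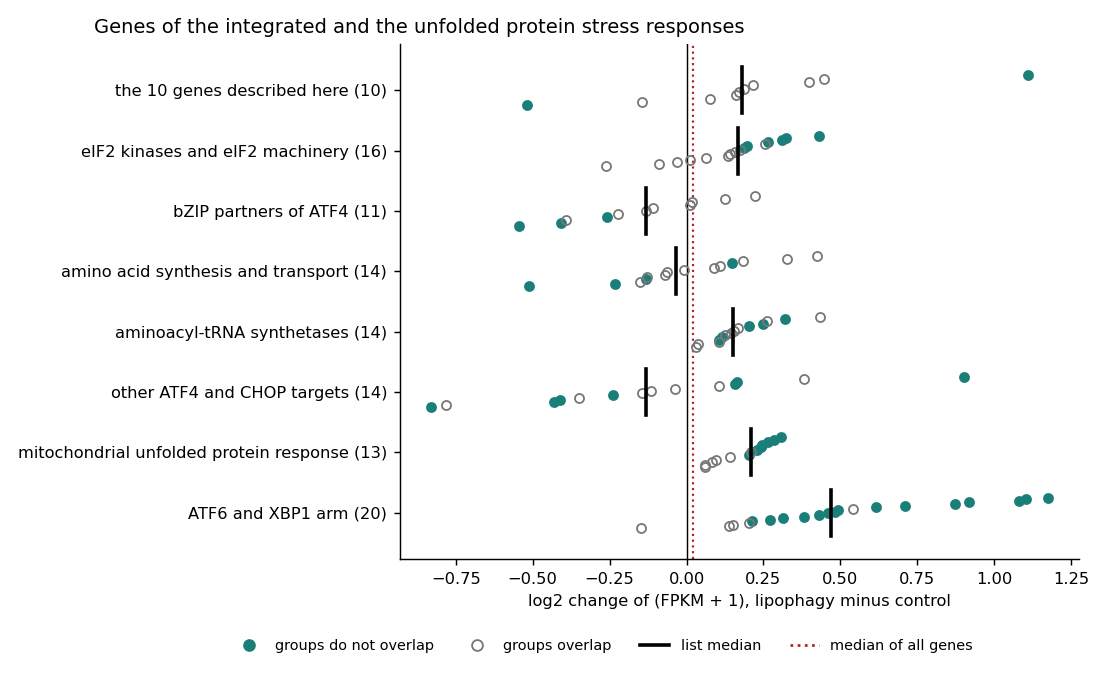
Log2 change of (FPKM + 1), lipophagy minus control, for each tested gene of 8 lists (number of genes in brackets), with filled points where the groups do not overlap, a black bar at the list median and a dotted line at the median of all genes. The 20 genes of the ATF6 and XBP1 arm have a median of 0.47 and the 14 other ATF4 and CHOP targets one of -0.13.

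In the other arms of the unfolded protein response most genes had higher means. Of 20 genes of the ATF6 and XBP1 arm, which supplies chaperones to the endoplasmic reticulum, 19 had a higher mean and 15 were higher without overlap (75.0%, against 15.4% of all genes), with a median of 0.47, or 0.30 both without control liver 1 and with quantile normalization. Creld2 (1.17), Dnajb9 (1.10) and Manf (1.08) were furthest up, with adjusted p of 0.165, 0.0802 and 0.154 (limma). The gene with a lower mean was Xbp1 itself, at 121 ± 11.4 and 109 ± 4.79 FPKM (SD, n = 3 each, log2 change -0.15). The groups overlapped for Xbp1 and for Ern1 (0.15), the gene of IRE1, and Atf6 was higher without overlap (0.21). Dnajb9, a cochaperone that dampens IRE1, was at 23.3 ± 4.32 FPKM (SD, n = 3) in control livers and 51.1 ± 7.27 FPKM (SD, n = 3) in lipophagy livers. Control liver 1 was the lowest in this list as well, at -0.56 as the average deviation, with the other control livers at -0.070 and -0.15 and the lipophagy livers at 0.31, 0.13 and 0.34. The mitochondrial unfolded protein response, which ATF5 is known to serve, had all 13 genes higher in the mean and 7 higher without overlap (53.8%, against 15.4% of all genes), with a median of 0.21, and 0.055 with quantile normalization. Dnaja3 (0.31), Hspa9 (0.28) and Yme1l1 (0.26), genes of mitochondrial chaperones and a protease, were furthest up.

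The response elements were read against these changes. Of all 244 tested genes with TGATGNAA in a promoter, 128 were higher and 116 lower, with a median log2 change of 0.011, beside 0.020 for the 8819 tested genes with a promoter in the table. Some listed genes had no promoter under their symbol and could not match. A promoter was held for 8 of the 14 genes of tRNA charging and 11 of the 16 other ATF4 and CHOP targets. It was held for 16 of the 19 genes of amino acid synthesis and transport, 13 of the 16 eIF2 genes and 10 of the 11 bZIP partners. Of the 15 tested genes with a match among the 10 and the pathway lists, 9 were higher and 6 lower, and the groups lay apart for 3 of the higher genes and 4 of the lower (15.4% and 10.8% of all genes tested). All of these genes whose groups lay apart held the identical letters TGATGCAA. Fgf21 (-0.83), Atf3 (-0.54), Chac1 (-0.52) and Slc1a4 (-0.51) were lower, and Herpud1 (0.90), Yars (0.32) and Iars (0.11) were higher. The groups overlapped for the other tested listed genes with these letters, Nupr1 (-0.35), Jdp2 (-0.11), Aars (0.030) and Tars (0.43). The ER stress response element, CCAAT and CCACG with 9 bases between them, which ATF6 binds with NF-Y, was searched in the same way. It was in none of the 12 promoters of the 10 genes, in 8 of the 17 of the ATF6 and XBP1 arm, and in 0.119% of all promoters. Of all 16 tested genes with it, 13 were higher and 3 lower, with a median of 0.32, where 54.6% of tested genes with a promoter were higher. The 7 that were on no list were 4 higher and 3 lower. The 9 on the lists all had a higher mean, from 0.14 (Canx) to 1.17 (Creld2), with a median of 0.48. Its letters before Hspa5, the gene of the main chaperone BiP (chr2:34772020-34772048, forward strand, 295 ± 70.9 and 540 ± 127 FPKM in control and lipophagy livers, SD, n = 3 each), are shown with the outer blocks in capitals.
Hspa5: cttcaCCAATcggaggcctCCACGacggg

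**Figure D4:**
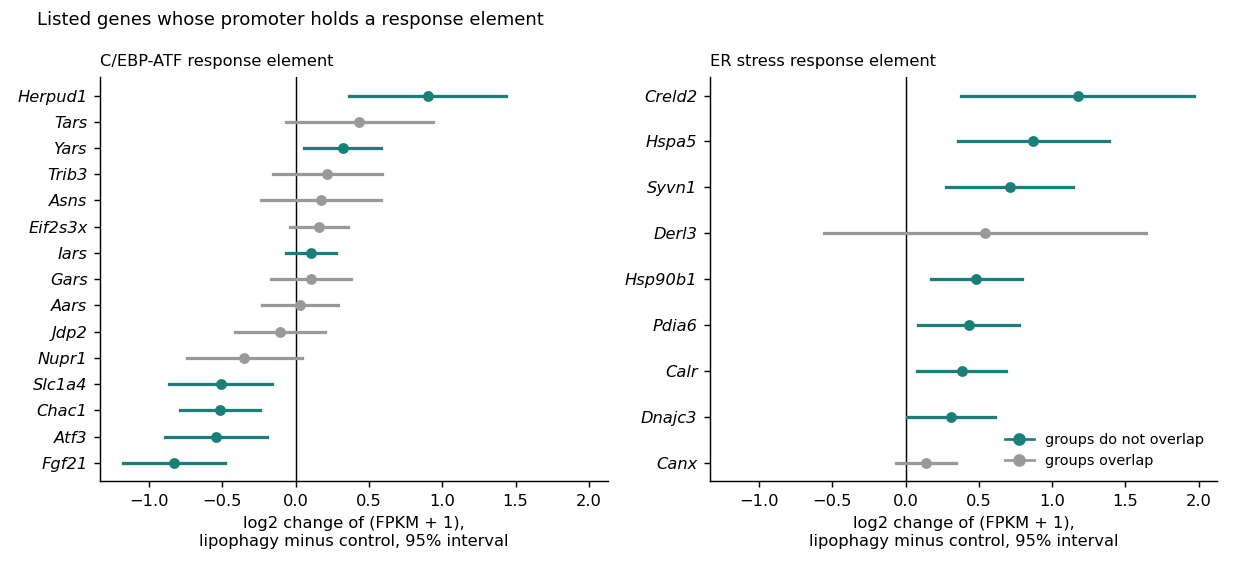
Log2 change of (FPKM + 1), lipophagy minus control, with its 95% interval, for the tested genes of the lists whose promoter holds the C/EBP-ATF response element (left, 15 genes) or the ER stress response element (right, 9 genes). The left genes run from Fgf21 at -0.83 to Herpud1 at 0.90, and the right genes all have estimates above 0, with the intervals of Canx and Derl3 crossing 0.

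Some of the values carry limits of annotation. In the GENCODE annotation of GRCm38, a second entry named Ddit3 spans chr10:127290829-127293753, within the span given above. Transcripts of both entries were pooled for the fragment estimate. Exons of Ddit3 overlap those of Mars and of the processed transcript Gm4189 on the opposite strand. Exons of Atf5 overlap those of Nup62 and Il4i1, and exons of Ppp1r15a those of Tulp2, also on the opposite strand. The libraries keep the strand, but how strand was treated in counting is not given in the sources used here. Mars was at 16.6, 19.9 and 16.8 FPKM in control livers and at 24.4, 22.6 and 17.9 FPKM in lipophagy livers, lowest in control liver 1 as Ddit3 was, though close to control liver 3, and highest in lipophagy liver 1 where Ddit3 was highest in lipophagy liver 3. The part of Mars reads in the Ddit3 value was not tested. Nup62 was at 2.74 to 4.56 FPKM, low beside Atf5. The 10 genes had an estimated 61.9 to 7130 fragments per liver, which cover counting error only.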

How the data were processed

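Liver RNA of 3 control and 3 lipophagy-induced mice was sequenced in paired-end mode from stranded poly(A) libraries, on a HiSeq instrument per the labels and a NovaSeq one per the methods. The authors deposited FPKM values per gene symbol. The submitters' processing notes name TopHat2 2.0.13, Bowtie2 2.2.3, SAMtools 0.1.19, Cufflinks 2.2.1 and mm10, and the annotation is not given in the sources used here. Count models were not applied, since FPKM is a normalized unit. Groups and numbers came from the sample titles. Per the methods, processing order was random; whether mice shared cages or batches is not given in the sources used here.

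Values were taken as log2(FPKM + 1), which understates changes of low genes. Genes averaging 0.5 FPKM or more entered limma 3.58.1 (R 4.3.3) with an intensity trend and no covariate, two-sided, adjusted by Benjamini-Hochberg over 11493 genes at 0.05. The procedure was tested on simulated data. Depth was the value at which low FPKM of genes with 1 transcript, times length less 150 bases, came nearest to whole fragments (516 to 641 genes). Between 65.2% and 68.8% then lay within 0.1 of a whole number. Promoters came from RefSeq and positions and lengths from GENCODE vM21 (both GRCm38), read with Python 3.11.15 and pandas 2.3.3. Plots were made with matplotlib 3.10.9.

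The 10 genes and all lists were chosen with earlier results of these data known. Named genes were the 10, the eIF2 kinases, in each list up to 3 on either side with the largest changes among those without overlap, and the 3 genes nearest to Atf4 and to the member with the largest change. Genes named outside this rule, such as Cebpb, Cebpg and those of the motif searches, were chosen after their values were seen. Alternatives were pseudocounts of 0.1 and 0.5, filters of 0.1, 1 or none, quantile or median scaling, no trend, liver weights, the replicate number as a block, and each liver left out.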

Additional observations from a re-analysis of the deposited data

How the results depend on the processing

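In 16 alternative fits the log2 changes of the 10 genes kept their sign and their side of the threshold in 157 of 160 values. The exceptions came from single livers: Atf5 at 0.095 without lipophagy liver 3, Asns at -0.028 without control liver 2, and Gdf15 at 1.43 with an adjusted p of 0.0417 (limma) without control liver 2. The number of all tested genes with an adjusted p below 0.05 was 3, and it was 1 with no filter on low values, 39 with liver weights and 43 with the replicate block. Leaving out single livers gave 2 to 11, with 7 when control liver 2 was absent, 5 when lipophagy liver 2 was and 11 when lipophagy liver 3 was. With each liver left out, the change of Gdf15 was 0.89 to 1.43, that of Chac1 -0.64 to -0.45, that of Atf5 -0.27 to 0.095 and that of Asns -0.028 to 0.32. With liver weights the change was 0.17 for Ddit3, 0.089 for Trib3 and 0.30 for Asns, with an unadjusted p of 0.0856 for Ddit4 (limma), and with quantile normalization it was 0.14 for Sesn2. With the replicate block no call at an adjusted p among the 10 differed, Ddit3 was added at an unadjusted p (0.0481, limma), and the adjusted p was 0.0563 for Gdf15 and 0.0789 for Chac1 (limma). Same-numbered livers had correlated deviations of 0.25, 0.23 and -0.057, and 3 of 6 livers correlated best with their own number. With so few livers this does not decide whether the numbers are pairs, and the main fit used no pairing. The cause of these differences was not tested. Depth limits Chac1, Ddit4 and Sesn2 most, the genes with the fewest estimated fragments.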

Other observations

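Other inputs to these genes were described in the same way. Of 8 glucocorticoid-responsive genes, a class to which Ddit4 also belongs, 7 had a higher mean in lipophagy livers and 3 were higher without overlap (37.5%, against 15.4% of all genes), with a median log2 change of 0.69, and 0.27 without lipophagy liver 3. Tsc22d3, which encodes the glucocorticoid-induced leucine zipper, was at 18.5 ± 2.74 FPKM (SD, n = 3) in control livers and 46.3 ± 19.3 FPKM (SD, n = 3) in lipophagy livers, and Per1 (0.83) and Pck1 (0.74) were higher as well, with adjusted p of 0.124, 0.207 and 0.186 (limma). Of 8 p53 targets, a class to which Gdf15 and Sesn2 also belong, 7 had a lower mean and 4 were lower without overlap (against 10.8% of all genes), with a median of -0.22. Phlda3 was at 10.1 ± 0.529 and 5.33 ± 1.15 FPKM (SD, n = 3 each; log2 change -0.82, adjusted p = 0.0937, limma), and Cdkn1a (-0.68) and Zmat3 (-0.27) were lower too. Gdf15 had a higher mean where 7 of these 8 had a lower one. The part of p53 in the Gdf15 and Sesn2 values was not tested.

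Of 7 tested paralogues of the 10 genes 3 had a higher and 4 a lower mean, with 1 higher and 1 lower without overlap (14.3% each, against 15.4% and 10.8% of all genes). Chac2, the constitutive relative of Chac1, was higher without overlap (log2 change 0.18, adjusted p = 0.243, limma) where Chac1 was lower, and Ddit4l was lower without overlap (-0.55, adjusted p = 0.16, limma) where Ddit4 had a higher mean. Trib1 (-0.50), Sesn1 (0.14) and Sesn3 (-0.15) overlapped, and Trib2, under the minimum, was at 0.495 to 0.569 FPKM in control livers and 0.299 to 0.366 FPKM in lipophagy livers.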
